A study of Mus musculus musculus x Mus musculus castaneus with 8 samples.

Results

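The genes described here are p53 itself and 9 genes tied to it by feedback or by transcriptional activation. They are Trp53, Mdm2, Mdm4, Ppm1d, Ccng1, Phlda3, Plk2, Trp53inp1, Sesn1 and Gdf15, taken by name from a composite count table of 24421 genes. All 10 were in the table and all 10 were among the 12643 genes with enough reads to be tested.

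The RNA came from fibroblasts grown from the tail of a female F1 hybrid. Its parents were Mus musculus musculus and Mus musculus castaneus, so mus and cas alleles can be told apart by their variants. There were 4 groups of 2 libraries. One received 5azadC together with VX680 (the combination), one 5azadC alone, one VX680 alone, and the untreated cells DMSO without drug, with DMSO used to give all conditions one added volume. The untreated samples are titled WT, a term the titles of the drug groups do not carry. 5azadC (5-aza-2'-deoxycytidine) is a nucleoside analogue that is built into DNA and traps DNA methyltransferases, and VX680 inhibits Aurora kinases, which act in mitosis. Growth lasted 72 h in every group, on plates of 15 cm, with the drugs given 24 h from plating. The doses are not given in the sources used here, nor whether the replicates were separate cultures, so the p-values reflect library spread that may be technical.

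The p53 protein is a transcription factor that is held low in unstressed cells by constant destruction. Mdm2 is the ubiquitin ligase that marks it for destruction, and because the Mdm2 gene is itself switched on by p53, the pair forms a negative feedback loop. Mdm4, a relative of Mdm2, blocks the activity of p53. Other target genes either damp the response (the phosphatase Ppm1d and cyclin G1) or carry out its arrest, metabolic and signalling arms (the Akt antagonist Phlda3, Plk2, Trp53inp1, Sesn1 and Gdf15). p53 is controlled to a large extent through its protein, which was not measured here.

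Libraries held between 6908503 and 11169532 counts, of which 26.1% to 26.9% could be assigned to an allele. Genes that differed 2-fold or more between replicates numbered 380 in the combination, 700 in 5azadC, 249 in VX680 and 427 in untreated cells, so the 5azadC pair was the least alike. The 9 fibroblast markers were all detected and summed to 11406 to 11621 CPM (the usual depth-scaled count, here relative to TMM-adjusted library sizes) in the combination, 17970 to 22277 in 5azadC, 13465 to 14007 in VX680 and 30940 to 35017 in untreated libraries. Of the 8 tested, 3 rose and 5 fell in the combination, 2 rose and 5 fell with 5azadC, and 3 rose and 5 fell with VX680. Marker lists of other cell types stayed far lower. The highest were 6 endothelial markers, which summed to 175 to 196 CPM in the combination, 218 to 232 in 5azadC, 192 to 195 in VX680 and 126 to 143 in untreated libraries. Most of that sum was Eng and Flt1. Several of the low lists differed between groups. Adipocyte markers summed to 24.9 to 25.9 CPM in the combination, 7.95 to 8.92 in 5azadC, 16.5 to 19.3 in VX680 and 3.37 to 4.35 in untreated libraries. Chondrocyte markers summed to 17.0 to 19.5 CPM in the combination, 25.4 to 28.9 in 5azadC, 9.85 to 12.4 in VX680 and 27.7 to 30.05 in untreated libraries. Sox9, the main part of the untreated sum, had a mean of 27.6 CPM there and 5.36 CPM with VX680. Col2a1 went the other way, from 0.21 CPM in untreated cells to 5.01 CPM with VX680. Skeletal muscle markers, mostly Acta1, summed to 27.7 to 28.4 CPM in the combination, 38.8 to 47.0 in 5azadC, 28.0 to 29.3 in VX680 and 19.8 to 20.7 in untreated libraries. Over all 8 libraries melanocyte markers ran from 26.1 to 43.9 CPM, leukocyte markers from 15.7 to 25.03 CPM and keratinocyte markers, with 2 to 5 of 6 at 0, from 1.36 to 2.66 CPM. In bulk RNA, fewer cells of a type and less RNA per cell cannot be told apart, and the part of the marker changes in the results below was not tested.

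Each drug, and the combination, moved the same 9 of the 10 genes in the same directions. Trp53, Mdm2, Ccng1, Phlda3, Plk2, Trp53inp1 and Gdf15 rose, Ppm1d and Sesn1 fell, and Mdm4 did not pass the test. The background of genes called was wide. The 10 genes were chosen with earlier results of these data known, so the counts beside it are not a test of enrichment. In the combination 7 rose where 28.4% of all tested genes did, and 2 fell where 27.3% did. With 5azadC 7 rose against a background of 22.6%, and 2 fell against 19.6%. With VX680 7 rose against 23.8%, and 2 fell against 22.4%. The share called in either direction over all tested genes was 55.7% in the combination, 42.2% with 5azadC and 46.1% with VX680. The median log2 fold change over the 10 genes was 1.47 in the combination, 0.9999 with 5azadC and 1.13 with VX680, against medians over all tested genes of 0.01, 0.00 and 0.01. These 3 comparisons share the 2 untreated libraries. All adjusted p-values are from edgeR's quasi-likelihood test with Benjamini-Hochberg adjustment over all tested genes, called below 0.05, and log2 fold changes are given ± SE.

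Together the 10 genes made up 1614 and 1611 CPM in the combination, 1232 and 1200 CPM in 5azadC, 1231 and 1243 CPM in VX680, and 559 and 544 CPM in untreated libraries. The make-up of this pool differed. Trp53 supplied 15.8% and 14.3% of it in the combination, 19.99% and 15.6% in 5azadC, 16.4% and 16.2% in VX680, and 25.8% and 27.3% in untreated libraries. Mdm2 supplied 24.98% and 24.85% in the combination, 16.9% and 17.9% in 5azadC, 22.1% and 21.9% in VX680, and 14.55% and 16.3% in untreated libraries.

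**Figure D1:**
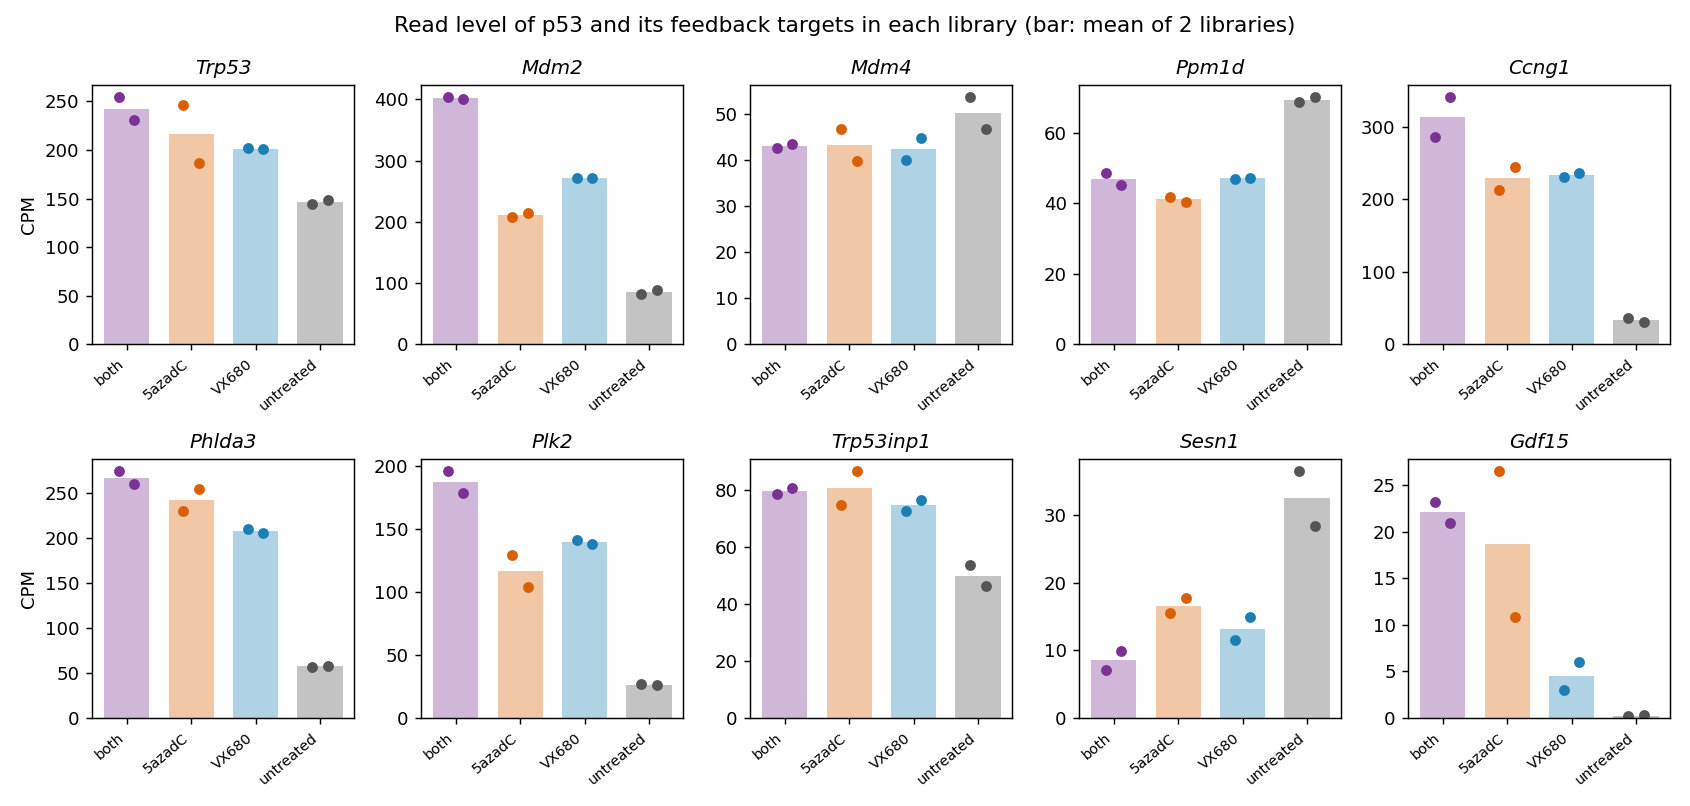
Read level of each gene in each library, in CPM on axes that start at 0, with groups from left to right as both drugs, 5azadC, VX680 and untreated; points are libraries and bars are means of 2. Mdm2, Ccng1, Phlda3 and Plk2 stand far above untreated in all 6 drug libraries, Ppm1d and Sesn1 stand below, and Gdf15 is at 0.181 and 0.293 CPM in untreated cells.

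Trp53 lies on chromosome 11 and encodes p53. It was read at 254 and 230.5 CPM in the combination, 246 and 187 CPM in 5azadC, 202 and 201 CPM in VX680, and 144 and 149 CPM in untreated libraries. All 6 drug libraries were above both untreated ones, and the 5azadC libraries differed most among themselves. The log2 fold change was 0.73 ± 0.12 in the combination (adjusted p = 0.000134), 0.57 ± 0.12 with 5azadC (adjusted p = 0.0016) and 0.46 ± 0.12 with VX680 (adjusted p = 0.00555). The VX680 call ended without untreated replicate 1 (log2 0.42, adjusted p = 0.0502), with adjusted p between 4.26e-05 and 0.0502 over 14 alternatives of tool, scaling, filter and libraries used. A processed pseudogene, Trp53-ps, carries a copy of the transcript, and how reads were divided between them is not given in the sources used here. Wrap53, the antisense neighbour of Trp53, did not pass in any of the 3 comparisons, at log2 0.39 ± 0.18 in the combination (adjusted p = 0.0819), 0.15 ± 0.18 with 5azadC and 0.10 ± 0.18 with VX680. The Wrap53 and Trp53 gene models do not overlap in the annotation used here.

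Mdm2 (chromosome 10) was called between all 3 drug groups as well as against untreated cells. The calls of VX680 against 5azadC and against the combination depended on single VX680 libraries. Its level was 403 and 400.2 CPM in the combination, 208 and 214 CPM in 5azadC, 272 and 272 CPM in VX680, and 81.3 and 88.5 CPM in untreated libraries. No group overlapped another, and replicates were within 1.09-fold of each other in each group. Over untreated cells the log2 fold change was 2.24 ± 0.09 in the combination (adjusted p = 6.88e-10), 1.32 ± 0.09 with 5azadC (adjusted p = 1.56e-07) and 1.68 ± 0.09 with VX680 (adjusted p = 1.33e-08).

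Set against its substrate within each library, Mdm2 had 0.954 and 1.04 reads per kilobase for each Trp53 read per kilobase in the combination. The ratio was 0.508 and 0.690 in 5azadC, 0.810 and 0.814 in VX680, and 0.339 and 0.358 in untreated libraries. Scaling between libraries cancels out of this ratio, and no test was made of it. The groups did not overlap, and in the combination Mdm2 transcripts were about as many as those of Trp53 per kilobase.

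Mdm4 (chromosome 1) was the one gene not called against untreated cells. It was at 42.6 and 43.5 CPM in the combination, 46.6 and 39.8 CPM in 5azadC, 40.1 and 44.7 CPM in VX680, and 53.6 and 46.8 CPM in untreated libraries. All drug libraries lay below both untreated ones, the closest being 5azadC replicate 1 beside untreated replicate 2. The log2 difference was -0.23 ± 0.13 in the combination (95% interval -0.47 to 0.02, adjusted p = 0.144). It was -0.22 ± 0.13 with 5azadC (-0.46 to 0.03, adjusted p = 0.179) and -0.25 ± 0.12 with VX680 (-0.50 to -0.01, adjusted p = 0.116). These normal approximations from SE are narrower than the F test allows, so the upper end of -0.01 is not evidence of a fall. These intervals do not include a rise of the size seen for Mdm2. The Mdm2 to Mdm4 ratio per kilobase was 22.35 and 21.7 in the combination, 10.55 and 12.7 in 5azadC, 16.02 and 14.4 in VX680, and 3.58 and 4.47 in untreated libraries. A pseudogene on the opposite strand, Gm29257, overlaps Mdm4, and Mdm4-ps is a processed copy, so the Mdm4 count is uncertain to that extent.

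Ppm1d (chromosome 11), the phosphatase Wip1 that removes activating phosphates from p53 and from the kinases upstream of it, fell in every drug group. It was at 48.5 and 45.1 CPM in the combination, 41.8 and 40.5 CPM in 5azadC, 46.9 and 47.3 CPM in VX680, and 68.7 and 70.1 CPM in untreated libraries. All drug libraries were below both untreated ones. The log2 fold change was -0.57 ± 0.10 in the combination (adjusted p = 0.000407), -0.75 ± 0.10 with 5azadC (adjusted p = 7.41e-05) and -0.56 ± 0.10 with VX680 (adjusted p = 0.000587). All 14 alternatives kept each of these calls. Relative to Trp53 per kilobase, Ppm1d was at 0.123 and 0.126 in the combination, 0.109 and 0.139 in 5azadC, 0.150 and 0.151 in VX680, and 0.306 and 0.303 in untreated libraries.

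Ccng1 (chromosome 11) encodes cyclin G1, which brings a phosphatase to Mdm2. Its level was 286 and 341 CPM in the combination, 213 and 245 CPM in 5azadC, 231 and 237 CPM in VX680, and 36.4 and 31.4 CPM in untreated libraries. Drug and untreated libraries were far apart, and those of the 5azadC and VX680 groups overlapped. Ccng1 had the highest log2 fold change of the 10 genes after Gdf15, at 3.20 ± 0.12 in the combination (adjusted p = 4.77e-10), 2.75 ± 0.12 with 5azadC (adjusted p = 9.74e-09) and 2.78 ± 0.12 with VX680 (adjusted p = 2.76e-09).

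Phlda3 (chromosome 1), a small membrane-binding protein that competes with the kinase Akt, was at 275 and 259.8 CPM in the combination, 230.0 and 254 CPM in 5azadC, 211 and 205 CPM in VX680, and 57.1 and 57.8 CPM in untreated libraries. The combination lay above 5azadC, and 5azadC above VX680, in every library. Over untreated cells it rose by log2 2.22 ± 0.10 in the combination (adjusted p = 1.03e-09), 2.08 ± 0.10 with 5azadC (adjusted p = 9.74e-09) and 1.86 ± 0.09 with VX680 (adjusted p = 9.12e-09).

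**Figure D2:**
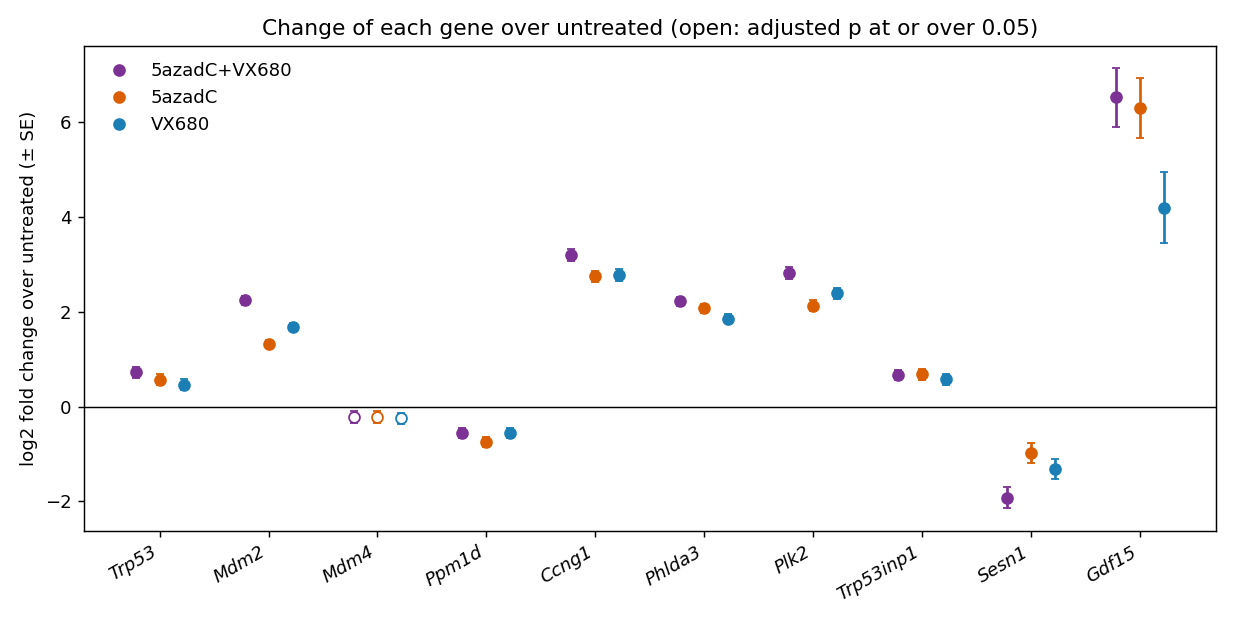
Log2 fold change over untreated cells (y axis, ± SE) of each of the 10 genes in the combination, 5azadC and VX680 groups, with open points where adjusted p was at or over 0.05. The 3 open points belong to Mdm4; Ppm1d and Sesn1 lie below 0 in all 3 groups, and the Gdf15 values rest on 4 untreated reads.

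Among the effector genes, Plk2 (chromosome 13), a polo-like kinase induced by stress, was at 196 and 179 CPM in the combination, 129 and 104 CPM in 5azadC, 141 and 138 CPM in VX680, and 27.2 and 25.9 CPM in untreated libraries. The 4 groups did not overlap. Plk2 rose by log2 2.81 ± 0.12 in the combination (adjusted p = 1.11e-09), 2.13 ± 0.12 with 5azadC (adjusted p = 4.7e-08) and 2.39 ± 0.12 with VX680 (adjusted p = 9.12e-09).

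Trp53inp1 (chromosome 4), a nuclear protein that promotes p53 phosphorylation and autophagy, moved less. It was at 78.6 and 80.7 CPM in the combination, 74.7 and 86.7 CPM in 5azadC, 72.8 and 76.4 CPM in VX680, and 53.7 and 46.2 CPM in untreated libraries. The drug groups lay close together, all above untreated. The rise was log2 0.67 ± 0.11 in the combination (adjusted p = 0.000206), 0.68 ± 0.11 with 5azadC (adjusted p = 0.000289) and 0.57 ± 0.11 with VX680 (adjusted p = 0.000962).

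Sesn1 (chromosome 10) encodes a sestrin, a stress protein that restrains the growth kinase mTORC1 and is known as a p53 target. It went down. Its level was 7.17 and 9.94 CPM in the combination, 15.5 and 17.7 CPM in 5azadC, 11.5 and 14.9 CPM in VX680, and 36.5 and 28.4 CPM in untreated libraries. No group overlapped another, with the combination lowest. The log2 fold change was -1.93 ± 0.22 in the combination (adjusted p = 6.6e-06), -0.98 ± 0.20 with 5azadC (adjusted p = 0.0017) and -1.32 ± 0.21 with VX680 (adjusted p = 0.000168), and all 14 alternatives kept each call. A gene model of uncertain status on the same strand, 9930024M15Rik, overlaps Sesn1, so part of its reads may belong there. Its relative Sesn2, a target of both p53 and the integrated stress response, moved the other way. Sesn2 was at 102 and 113 CPM in the combination, 154 and 156 CPM in 5azadC, 81.2 and 82.3 CPM in VX680, and 59.9 and 69.6 CPM in untreated libraries. It rose by log2 0.74 ± 0.10 in the combination (adjusted p = 3.9e-05), 1.26 ± 0.10 with 5azadC (adjusted p = 7.54e-07) and 0.34 ± 0.10 with VX680 (adjusted p = 0.0154).

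Gdf15 (chromosome 8), a secreted stress hormone of the TGF-beta family, was nearly silent in untreated cells. It was at 23.2 and 21.0 CPM in the combination, 26.5 and 10.8 CPM in 5azadC, 3.04 and 5.99 CPM in VX680, and 0.181 and 0.293 CPM in untreated libraries. The untreated value is 2 reads in each library. The 5azadC libraries differed 2.45-fold and the VX680 libraries 1.97-fold. From the summed reads, 317 in the combination against 4 in untreated cells, the level was 98.5 times that of untreated cells (95% interval 38.1 to 363.8, for counting error alone). The ratio was 87.0 with 5azadC (33.6 to 321.3) and 19.2 with VX680 (7.19 to 72.2). The rise was called in the combination (adjusted p = 1.15e-06), with 5azadC (adjusted p = 4.42e-06) and with VX680 (adjusted p = 0.000491). Without 5azadC replicate 1 the fitted fold change with 5azadC was 1.74 times lower, and the call held.

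Per kilobase of the deposited gene length the order of the 10 genes differed between drug-treated and untreated cells. Values are mean CPM per kilobase (RPKM) ± SD of 2 libraries. In the combination the order was Phlda3 (183 ± 7.19), Trp53 (131 ± 9.05), Mdm2 (130.2 ± 0.70), Ccng1 (90.1 ± 11.3), Plk2 (67.3 ± 4.35), Gdf15 (20.5 ± 1.46), Ppm1d (16.2 ± 0.83), Trp53inp1 (14.7 ± 0.28), Mdm4 (5.91 ± 0.084) and Sesn1 (2.70 ± 0.62). Trp53 and Mdm2 were the one pair of neighbours whose libraries overlapped there.

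With 5azadC, Phlda3 (165 ± 11.7) and Trp53 (117 ± 22.7) again led, followed by Mdm2 (68.5 ± 1.40) and Ccng1 (65.9 ± 6.57), which overlapped. Next came Plk2 (41.8 ± 6.39), then Gdf15 (17.3 ± 10.3), Trp53inp1 (14.9 ± 1.56) and Ppm1d (14.3 ± 0.33), which could not be ordered. Mdm4 (5.93 ± 0.66) and Sesn1 (5.23 ± 0.49) overlapped at the bottom. With VX680 the order was Phlda3 (142 ± 2.58), Trp53 (109 ± 0.31), Mdm2 (88.1 ± 0.070), Ccng1 (67.2 ± 1.24), Plk2 (50.2 ± 0.72), Ppm1d (16.3 ± 0.085) and Trp53inp1 (13.8 ± 0.48), each apart from the next. Below them Mdm4 (5.82 ± 0.46) overlapped Gdf15 (4.18 ± 1.93), which overlapped Sesn1 (4.16 ± 0.76).

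In untreated cells Trp53 came first (79.0 ± 1.63), followed by Phlda3 (39.3 ± 0.30), Mdm2 (27.5 ± 1.65) and Ppm1d (24.0 ± 0.33). Sesn1 (10.2 ± 1.81), Ccng1 (9.73 ± 1.01), Plk2 (9.54 ± 0.32) and Trp53inp1 (9.21 ± 0.98) each overlapped the next, Mdm4 followed (6.89 ± 0.66), and Gdf15 came last (0.220 ± 0.073). Sesn1 thus ranked 5 of 10 in untreated cells and last in every drug group, though not apart from its neighbour with 5azadC or VX680.

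Adding VX680 to 5azadC raised Mdm2, Plk2 and Ccng1 further and lowered Sesn1 further. Of the 10 genes 3 rose where 9.98% of all genes did, and 1 fell where 14.8% did (24.8% in either direction). The combination over 5azadC gave log2 0.93 ± 0.09 for Mdm2 (adjusted p = 5.54e-06), 0.68 ± 0.11 for Plk2 (adjusted p = 0.000498), 0.45 ± 0.11 for Ccng1 (adjusted p = 0.00831) and -0.95 ± 0.23 for Sesn1 (adjusted p = 0.00876). The Ccng1 call ended without combination replicate 2 (log2 0.31, adjusted p = 0.146) and the Sesn1 call without combination replicate 1 (log2 -0.74, adjusted p = 0.0999). The range of adjusted p over 14 alternatives was 0.000262 to 0.146 for Ccng1 and 0.000207 to 0.0999 for Sesn1. Trp53 (log2 0.16 ± 0.12, adjusted p = 0.343) and Gdf15 (0.23 ± 0.34, adjusted p = 0.666) did not pass, and both did without 5azadC replicate 1, where Trp53 was at log2 0.37 (adjusted p = 0.00959) and Gdf15 at 1.02 (adjusted p = 0.0221). Phlda3 (0.14 ± 0.09, adjusted p = 0.262) passed with limma on the authors' signal (0.0467). Over the 14 alternatives adjusted p ran to 0.914 for Trp53 and to 0.866 for Gdf15.

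Adding 5azadC to VX680 raised 5 of the 10 genes, where 2.45% of all genes rose, and lowered none, where 4.05% fell (6.5% in either direction). The combination over VX680 gave log2 2.32 ± 0.39 for Gdf15 (adjusted p = 0.00379), 0.56 ± 0.08 for Mdm2 (adjusted p = 0.00191), 0.42 ± 0.11 for Plk2 (adjusted p = 0.0322), 0.42 ± 0.11 for Ccng1 (adjusted p = 0.0341) and 0.36 ± 0.09 for Phlda3 (adjusted p = 0.0272). In all 5 the libraries of the groups did not overlap. The share of all tested genes without such overlap was not counted, so this adds no support to the calls. Each of these 5 calls depended on single libraries, and none was made without VX680 replicate 1. Those of Ccng1, Phlda3 and Plk2 ended when any one of the 4 libraries compared was left out, with adjusted p up to 0.363, 0.230 and 0.267. Limma on the authors' signal did not call Ccng1 (0.0541) or Plk2 (0.0558). That of Mdm2 ended without VX680 replicate 1 (adjusted p = 0.0556), and that of Gdf15 without VX680 replicate 1 (0.0941) or combination replicate 1 (0.0517). The log2 value of Mdm2 stayed between 0.55 and 0.57 in all alternatives. Trp53 (log2 0.27 ± 0.12, adjusted p = 0.211) and Sesn1 (-0.61 ± 0.23, adjusted p = 0.153) did not pass, and Trp53 passed in 3 of 14 alternatives, without 5azadC replicate 1 (0.0318), without 5azadC replicate 2 (0.0297) and with those 2 groups fitted alone (0.00912).

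Between the single drugs, 2 of the 10 genes differed. Gdf15 was higher with 5azadC than with VX680 (log2 2.10 ± 0.39, adjusted p = 0.0025), and Mdm2 was lower with 5azadC (-0.36 ± 0.08, adjusted p = 0.00999). Over all genes 9.33% were higher and 6.47% lower, 15.8% in all. Both calls depended on single libraries. Mdm2 did not pass without VX680 replicate 1 (adjusted p = 0.0928) or 2 (0.098), and Gdf15 not without VX680 replicate 1 (0.0577). Leaving out 5azadC replicate 1, where Gdf15 was higher, gave log2 1.31 for Gdf15, a move of 1.73-fold. For the other 8 genes the difference did not pass, with 95% intervals such as -0.24 to 0.18 for Ccng1, -0.10 to 0.33 for Trp53inp1 and -0.12 to 0.33 for Trp53. Plk2 (-0.26 ± 0.11, adjusted p = 0.124) and Phlda3 (0.22 ± 0.09, adjusted p = 0.114) passed without 5azadC replicate 1 (0.0101 and 0.036), and Trp53 without 5azadC replicate 2 (0.0388). Plk2 also passed with limma on the authors' signal (0.045).

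The combined change was less than the sum of the single changes on the log2 scale for most of the genes that moved. Whether levels in CPM add up was not tested. The interaction (combination minus 5azadC minus VX680 plus untreated) was called negative in 6 of 10, where 10.6% of all genes were, and positive in 1, where 4.95% were (15.6% in all). For Ccng1 the combined log2 change was 3.20 and the sum of the single changes 5.53, a difference of -2.33 ± 0.16 (adjusted p = 1.46e-06). For Phlda3 the values were 2.22 and 3.93, a difference of -1.71 ± 0.13 (adjusted p = 2.47e-06), and for Plk2 2.81 and 4.52, a difference of -1.71 ± 0.16 (adjusted p = 1.88e-05). Mdm2 came closer to its sum, at 2.24 and 2.998, a difference of -0.75 ± 0.12 (adjusted p = 0.00109). Whether the Mdm2 difference was smaller than those of Ccng1, Phlda3 and Plk2 was not tested. Its approximate 95% interval was -0.99 to -0.51, and theirs ended at -2.01, -1.46 and -1.39. All come from the same 8 libraries, so these intervals are not a test between genes.

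Gdf15 had an interaction of -3.98 ± 0.87 (adjusted p = 0.00751), a fitted value that rests on 4 untreated reads and was lost without untreated replicate 1 (log2 -3.59, adjusted p = 0.0819). Without 5azadC replicate 1 it was -3.17 and still called. For Trp53inp1 the combined change was 0.67 and the sum 1.25, a difference of -0.59 ± 0.16 (adjusted p = 0.0226). That call ended without untreated replicate 2 (adjusted p = 0.0944) or without any one VX680 or combination library (0.0713 to 0.0974). Ppm1d had a combined change of -0.57 and a sum of -1.31, and the combined value stood above the sum by 0.74 ± 0.15 (adjusted p = 0.00456). Trp53 (-0.30 ± 0.16, adjusted p = 0.25), Mdm4 (0.24 ± 0.18, adjusted p = 0.4) and Sesn1 (0.37 ± 0.31, adjusted p = 0.477) did not pass. Trp53 passed without 5azadC replicate 2 (log2 -0.47, adjusted p = 0.0103). For Sesn1 the combined fall was -1.93 and the sum -2.30, and the 95% interval of the difference, -0.25 to 0.98, takes in 0.

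**Figure D3:**
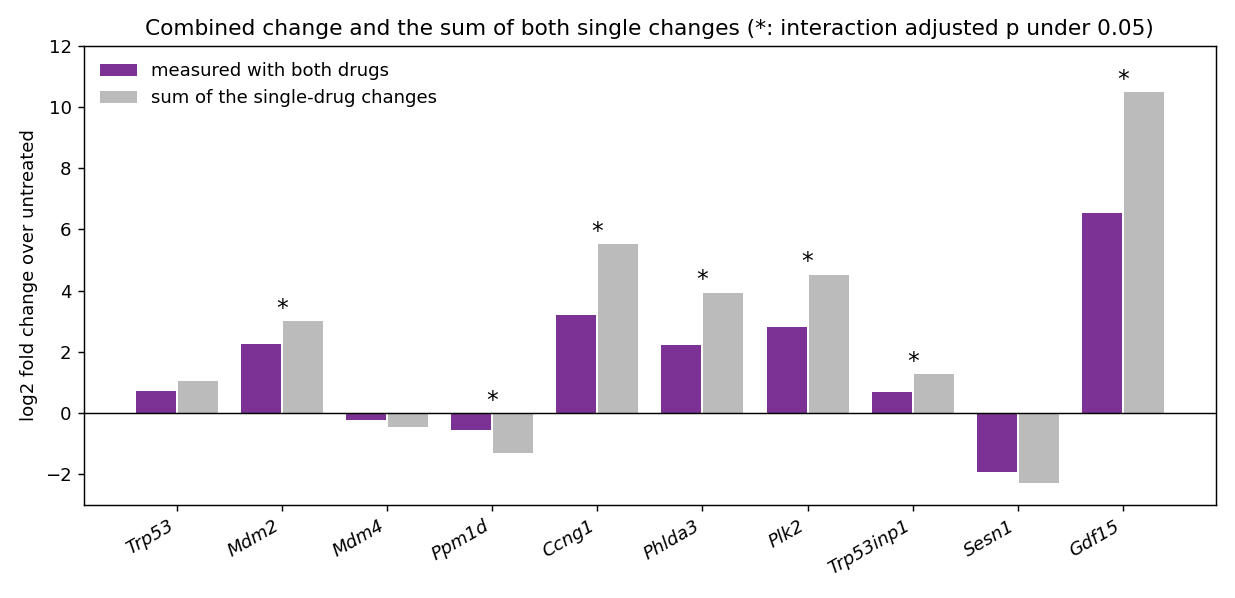
Log2 fold change over untreated cells measured with both drugs (left bar of each pair) and the sum of both single-drug changes (right bar), with a star where the interaction had adjusted p under 0.05. For Ccng1 the measured bar ends at 3.20 and the sum at 5.53, and for Sesn1 they end at -1.93 and -2.30 with no star; the Gdf15 bars rest on 4 untreated reads.

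Reads that carry a variant showed which allele each gene was read from. In untreated cells 1 of the 10 genes was called off parity, Mdm2, where 38.2% of the 10301 genes tested were (26.9% toward cas and 11.3% toward mus). Gdf15 could not have been called, with 1 allelic read in the untreated libraries. Mdm2 was read almost entirely from the cas allele. It had 7 mus and 273 cas reads, and 8 and 291, in the combination libraries, 10 and 176, and 8 and 164, in 5azadC, 7 and 307, and 10 and 215, in VX680, and 2 and 70, and 0 and 44, in untreated libraries. The pooled mus share was 2.59% in the combination (exact 95% interval 1.46% to 4.24%), 5.03% with 5azadC (3.01% to 7.83%), 3.15% with VX680 (1.85% to 5.00%) and 1.72% in untreated cells (0.21% to 6.09%). The log2 mus to cas ratio in untreated cells was -5.65 ± 0.53 (adjusted p = 3.43e-12), and -8.57 without untreated replicate 1, which leaves a library with no mus read. Of 10023 autosomal genes 195 (1.95%) had a mus share at or below that of Mdm2 over all 8 libraries, and the median autosomal mus share was 47.1%. How many variants Mdm2 carries, and how reads were assigned to alleles, is not given in the sources used here. Nearly all allelic reads behind the Mdm2 levels were thus cas. The authors' deposited tables list Mdm2 log2 fold changes on the cas allele of 2.36 in the combination, 1.27 with 5azadC and 1.77 with VX680. On the mus allele, with those few reads, the authors' deposited tables list 3.23, 3.17 and 3.06, at false discovery rates of 0.0105, 0.0209 and 0.0273.

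Gdf15 had a single allelic read in untreated cells, so no change of its allele ratio could be tested. None of the other 9 genes was called for a changed ratio by edgeR's test in any drug group, where 0.515% of genes did in the combination, 0.282% with 5azadC and 0.379% with VX680. At an unadjusted p under 0.05, 1 gene passed with 5azadC and none in the other groups, and DESeq2 also called none after adjustment. That gene was Sesn1, with 7 mus and 46 cas, and 16 and 41 reads in the 5azadC libraries, against 67 and 79, and 39 and 42 in untreated libraries. Its pooled mus share was 37.0% in the combination (23.2% to 52.4%), 20.9% with 5azadC (13.7% to 29.7%), 43.3% with VX680 (30.6% to 56.8%) and 46.7% in untreated cells (40.1% to 53.4%). The change in log2 ratio with 5azadC was -1.75 ± 0.57 (adjusted p = 0.346), and adjusted p was 0.239 to 1 over 13 alternatives, so the shift does not hold after correction. The authors' deposited table for this comparison lists a Sesn1 log2 fold change of -2.15 on the mus allele (false discovery rate 0.000465) and -0.39 on the cas allele (false discovery rate 0.466).

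Most other genes had mus shares between 49.7% and 55.3%. Over all 8 libraries the mus share was 49.7% for Trp53 (2729 allelic reads), 50.5% for Ccng1 (3856), 55.3% for Plk2 (1386), 53.5% for Mdm4 (1132), 49.8% for Ppm1d (965) and 55.2% for Trp53inp1 (939). The exact intervals of Plk2 (52.7% to 58.0%), Trp53inp1 (51.9% to 58.4%) and Mdm4 (50.6% to 56.5%) lay above 50%, for counting error alone. Those of Trp53, Ccng1 and Ppm1d took in 50%. Phlda3 stood at 36.2% (527 reads, 32.1% to 40.5%), with 29.2% in the combination (22.8% to 36.3%) and 36.0% in untreated cells (22.9% to 50.8%). In untreated cells, with 50 allelic reads, edgeR's test did not call it off parity (adjusted p = 0.207). No parity test was made in the combination or over all 8 libraries. With both drugs Gdf15 had 25 mus and 76 cas reads, a mus share of 24.8% (16.7% to 34.3%), with 5azadC 14 and 57 reads, 19.7% (11.22% to 30.9%), and with VX680 2 and 14 reads, 12.5% (1.55% to 38.4%). The authors' deposited tables, which list 9 of the 10 genes and not Gdf15, gave a false discovery rate below 0.05 on the cas allele for 8 genes in the combination (6 up, 2 down), 6 with 5azadC (6 up) and 7 with VX680 (5 up, 2 down). Of the 9098 to 9345 genes on the cas allele in the authors' deposited tables, 39.7% were below that rate in the combination (23.7% up, 16% down), 21% with 5azadC (11.8% up, 9.22% down) and 32.5% with VX680 (19.6% up, 12.9% down). On the mus allele the authors' deposited tables gave 7 in the combination (6 up, 1 down), 5 with 5azadC (4 up, 1 down) and 7 with VX680 (6 up, 1 down). There 30.8% of the genes in the authors' deposited tables were below that rate in the combination (16.7% up, 14.1% down), 13.6% with 5azadC (7.43% up, 6.19% down) and 23.3% with VX680 (13.7% up, 9.59% down). In the authors' deposited tables Ccng1 had log2 fold changes in the combination of 3.18 on mus and 3.45 on cas, and Plk2 of 3.15 and 2.68.

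**Figure D4:**
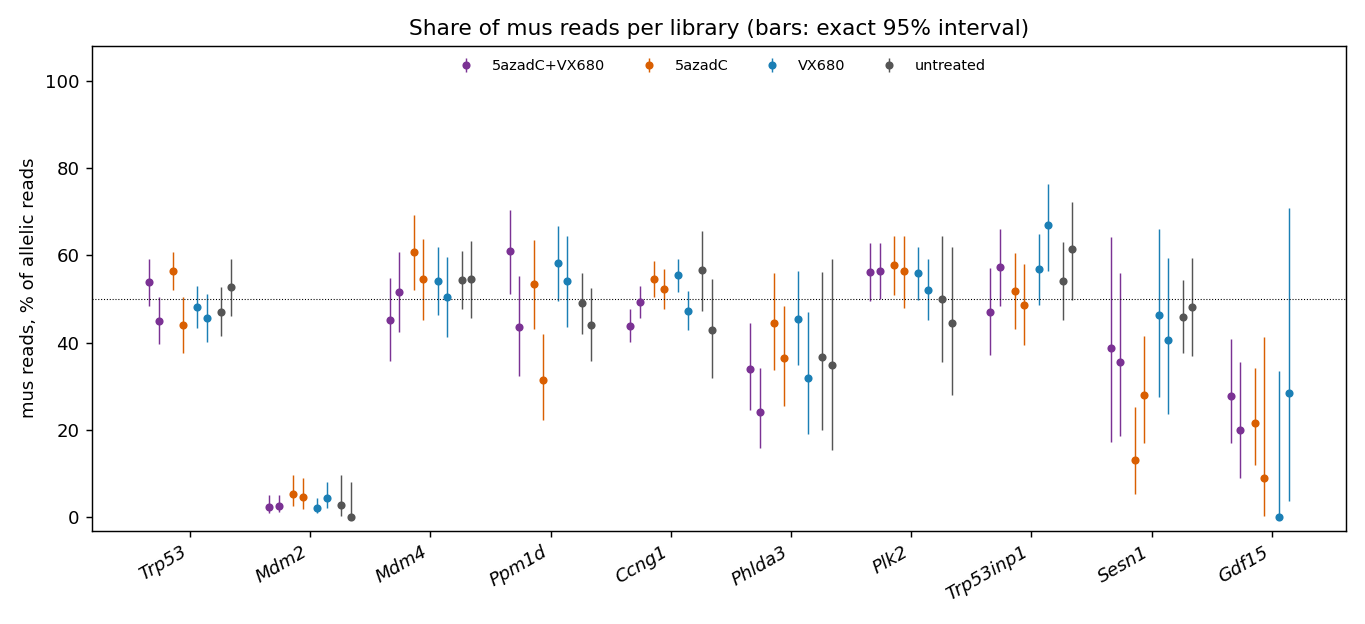
Share of mus reads among allelic reads (y axis, percent) in each library with at least 5 allelic reads of the gene, with exact 95% intervals and a dotted line at 50%, the groups of each gene from left to right being both drugs, 5azadC, VX680 and untreated. Mdm2 lies between 0% and 5.38% in all 8 libraries, and Sesn1 lies at 13.2% and 28.1% in the 5azadC libraries against 45.9% and 48.15% in untreated ones.

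Among other known p53 target genes more rose than fell in every drug group. Of 35 listed, 34 were tested; 23 rose and 4 fell in the combination (median log2 0.90), 22 rose and 3 fell with 5azadC (0.96), and 19 rose and 2 fell with VX680 (0.59). Over all tested genes 28.4% rose and 27.3% fell in the combination, 22.6% and 19.6% with 5azadC, and 23.8% and 22.4% with VX680. This list and those below were chosen with earlier results of these data known. Their counts beside these shares are not a test of enrichment. The interaction was called negative in 16 of the 34, where 10.6% of all genes were, and positive in none, where 4.95% were (median -0.68, against -0.03 over all genes). Cdkn1a, the p21 cell cycle inhibitor, rose by log2 3.29 ± 0.10 in the combination (adjusted p = 4.15e-11), 2.78 ± 0.10 with 5azadC and 3.08 ± 0.10 with VX680. The death gene Pmaip1, which encodes Noxa, rose by 3.89 ± 0.20, 2.64 ± 0.21 and 3.24 ± 0.20 in the same order, and the nuclease gene Aen by 2.90 ± 0.14, 2.33 ± 0.14 and 2.45 ± 0.14. The receptor gene Epha2 rose by 2.71 ± 0.14, 2.09 ± 0.14 and 2.27 ± 0.14, and the RNA-binding factor Zmat3 by 1.73 ± 0.11, 1.64 ± 0.10 and 1.45 ± 0.10. All of these had adjusted p of 6.87e-07 or less. They were named as the 5 genes of the list with the smallest p in the combination, so small values there follow from the choice. The lists below also had 5 genes each named in this way. Those that fell in the combination were Abhd4 (-0.66), Foxo3 (-0.56), Xpc (-0.48) and Apaf1 (-0.26). With 5azadC Xpc (-0.85), Gadd45a (-0.70) and Abhd4 (-0.36) fell, and with VX680 Foxo3 (-0.54) and Abhd4 (-0.47). Foxo3 is a stress transcription factor, Xpc a DNA repair factor and Apaf1 a caspase activator.

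Genes that act on p53 were called about as often as genes in general. Of 28 listed regulators and partners 27 were tested; 5 rose and 7 fell in the combination, 5 rose and 5 fell with 5azadC, and 5 rose and 8 fell with VX680, with medians of -0.01, -0.01 and -0.13. The shares of all tested genes that rose and fell were 28.4% and 27.3% in the combination, 22.6% and 19.6% with 5azadC, and 23.8% and 22.4% with VX680, so these counts are not a result about the list. The acetyltransferase genes Ep300 and Crebbp, whose products acetylate p53, fell in the combination, at log2 -0.73 ± 0.10 (adjusted p = 4.77e-05) and -0.82 ± 0.12 (adjusted p = 5.26e-05). Trim24, a ubiquitin ligase for p53, also fell (-0.78 ± 0.10, adjusted p = 2.69e-05). The methyltransferase gene Setd8 (1.18 ± 0.13, adjusted p = 5.34e-06) and the p53 kinase gene Dyrk2 (0.92 ± 0.11, adjusted p = 9.75e-06) rose.

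Usp28, Trp53bp1 and Lats2 act in mitotic surveillance and in the response to extra genome copies, routes to p53 that do not need DNA breaks. In the combination Usp28 and Trp53bp1 fell, at log2 -0.51 ± 0.15 (adjusted p = 0.0117) and -0.57 ± 0.14 (adjusted p = 0.004), while Lats2 was at 0.13 ± 0.11 (adjusted p = 0.336). With VX680 alone Usp28 was at -0.37 ± 0.15 (adjusted p = 0.057), Trp53bp1 fell, at -0.41 ± 0.14 (adjusted p = 0.0291) and Lats2 was at 0.19 ± 0.11 (adjusted p = 0.192). With 5azadC alone none of the 3 passed.

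Cell cycle genes that p53 is known to repress through the DREAM complex did not fall as a group. Of 16, all tested, 12 rose and 1 fell in the combination (median log2 0.44), 3 rose and 2 fell with 5azadC (0.04), and 7 rose and 2 fell with VX680 (0.27). The background of genes that rose was 28.4% in the combination, 22.6% with 5azadC and 23.8% with VX680, and of genes that fell 27.3%, 19.6% and 22.4%, so the 5azadC counts lie near it. The one that fell in the combination was the proliferation marker Mki67 (-0.22). With 5azadC Mki67 (-0.40) and Top2a (-0.33) fell, and with VX680 Mki67 (-0.29) and E2f1 (-0.32). The combination over 5azadC raised 9, where 9.98% of all genes rose, and lowered none, where 14.8% fell. Cdc20, an activator of mitotic exit, rose by 1.04 ± 0.10 in the combination (adjusted p = 8.33e-07), 0.37 ± 0.10 with 5azadC (adjusted p = 0.00709) and 0.93 ± 0.10 with VX680 (adjusted p = 4.23e-06). Aurka, which encodes a target of VX680, rose by 0.93 ± 0.10 in the combination (adjusted p = 4e-06) and 1.02 ± 0.10 with VX680 (adjusted p = 2.97e-06), and was at 0.16 ± 0.10 with 5azadC (adjusted p = 0.245). Plk1, Birc5 and Cdk1, which drive mitosis, rose in the combination by 0.70 ± 0.10, 0.76 ± 0.12 and 0.54 ± 0.09 (adjusted p of 0.00021 or less).

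**Figure D5:**
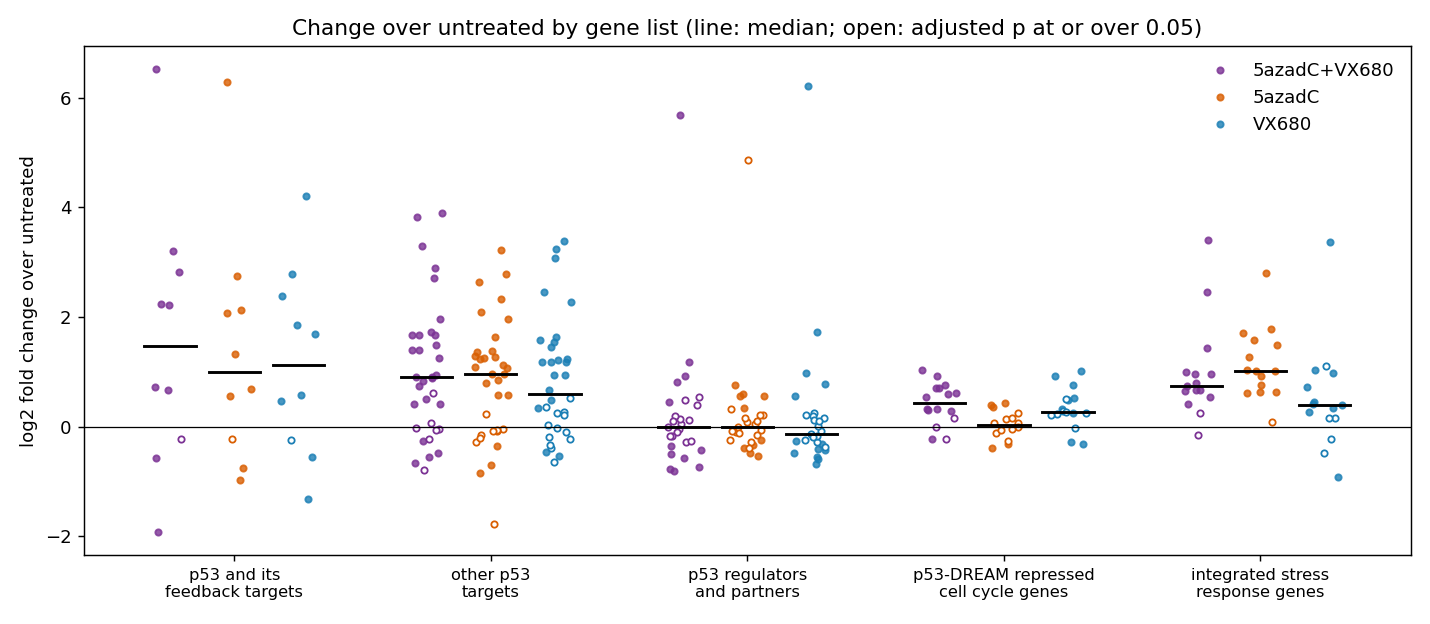
Log2 fold change over untreated cells (y axis) of every tested gene in 5 lists, in the combination, 5azadC and VX680 groups from left to right; lines are medians and open points had adjusted p at or over 0.05. Medians of other p53 targets lie at 0.90, 0.96 and 0.59, and those of the cell cycle genes at 0.44, 0.04 and 0.27.

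Gdf15 and Sesn2 are also known to answer to the integrated stress response, in which Atf4 activates genes of amino acid supply. Of 15 genes of that response 13 rose and none fell in the combination (median log2 0.74), 14 rose and none fell with 5azadC (1.02), and 9 rose and 1, Trib3, fell (-0.93) with VX680 (0.40). Of all tested genes 28.4% rose in the combination, 22.6% with 5azadC and 23.8% with VX680, and 27.3%, 19.6% and 22.4% fell. Between the single drugs 8 were higher with 5azadC than with VX680, where 9.33% of all genes were, and 1, Ppp1r15a, lower (-0.37), where 6.47% were. Asns, the asparagine synthetase gene, rose by 1.001 ± 0.14 in the combination (adjusted p = 3.05e-05) and 1.58 ± 0.13 with 5azadC (adjusted p = 1.08e-06), and was at 0.16 ± 0.14 with VX680 (adjusted p = 0.374). Psat1, of serine synthesis, rose by 1.44 ± 0.10, 1.48 ± 0.10 and 1.03 ± 0.10 in the combination, 5azadC and VX680. Atf3, a stress factor that p53 can also induce, rose by 3.41 ± 0.30, 2.81 ± 0.31 and 3.37 ± 0.30, and Ppp1r15a, which ends the response, by 0.97 ± 0.11, 0.61 ± 0.11 and 0.97 ± 0.11. Atf4 rose by 0.40 ± 0.09 (adjusted p = 0.00214), 0.63 ± 0.09 (adjusted p = 0.000115) and 0.26 ± 0.09 (adjusted p = 0.0353), and Ddit3 by 0.65 ± 0.11, 0.63 ± 0.11 and 0.45 ± 0.11. The part of this response in the Gdf15 level was not tested.

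The genes whose pattern was closest to a member were taken from 9711 tested genes, those whose log2 CPM averaged 3 or more. Closeness was the root mean square difference, over the 8 libraries, of log2 CPM relative to untreated cells. Nearest to Mdm2 were Pxdc1 (0.10), the dipeptidase gene Cndp2 (0.12) and the lysyl oxidase relative Loxl4 (0.13). Nearest to Ccng1 were Cdkn1a (0.18), Zfp365 (0.23) and Tnfrsf12a (0.24), the receptor of the cytokine TWEAK. Nearest to Gdf15, at a greater distance, were Apol9a (0.71), Glipr1 (0.74) and the xanthine dehydrogenase gene Xdh (0.75). The log2 fold change of Apol9a over untreated cells, as fitted by edgeR, was 4.58 in the combination, 5.01 with 5azadC and 2.85 with VX680.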

How the data were processed

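Composite raw counts per gene and raw counts per mus or cas allele were used as deposited; per the labels, libraries were strand-marked, and whether counting used strand is not given in the sources used here. The submitters' processing notes name mm9, TopHat2 2.0.10, HOMER 4.8 and edgeR, with no role. The authors' normalized signal, deposited beside the raw counts, equals those counts times 1 factor per library and served as an alternative, tested by limma 3.58.1 on log2(signal + 1). Deposited allelic tables give the authors' log2 fold changes and false discovery rates (adjusted p-values). In all, 32 per-sample columns were not used.

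Counts were tested with edgeR 4.0.16 in R 4.3.3 (filterByExpr, TMM, 1 mean per group over 8 libraries, quasi-likelihood, 7 comparisons). SE is the log2 fold change divided by the root of F. Allele ratios were tested in 10301 genes averaging 10 or more allelic reads; the model held library terms plus 1 mus effect for each group. CPM uses TMM-scaled library sizes, log2 CPM a prior count of 2, and levels per kilobase (RPKM) the deposited gene length in bases, named in the file headers. Scripts were tested on simulated data. Intervals of shares and ratios are exact, at 95%, and cover counting error only. Intervals of log2 fold changes are normal approximations from SE, narrower than the F test would give. Alternatives were DESeq2 1.42.0, RLE size factors, no filter, groups fitted alone, leaving out each library, a replicate term and stricter thresholds.

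The 10 genes, the lists and the tests were chosen with earlier results of these data known. Named list genes are the 5 of each list with the smallest p for the combination over untreated cells, Cdkn1a, Wrap53, Lats2, Usp28, Trp53bp1, Atf4 and Ddit3, and the 3 genes nearest in pattern to Mdm2, Ccng1 and Gdf15; list genes that fell were named after their values were seen. The annotation used for overlaps (GENCODE M21) is of another build, so no coordinates are given.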

Additional observations from a re-analysis of the deposited data

Results flagged for a closer look

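In 7 of the 10 genes the log2 effect of one drug differed with and without the other, by edgeR's test of the difference itself, where 15.6% of all tested genes did. On the log2 scale the combined change minus the sum of the single changes was -2.33 for Ccng1, -1.71 for Phlda3, -1.71 for Plk2, -0.75 for Mdm2, -0.59 for Trp53inp1 and -3.98 for Gdf15. These genes all rose, and on that scale both drugs together gave less than the added single changes. For Ppm1d, which fell, the difference was 0.74, and on that scale both drugs together lowered it less than the added single changes. Whether levels in CPM add up was not tested, and the genes differed in this. Mean Mdm2 was 402 CPM in the combination, 211 with 5azadC, 272 with VX680 and 84.9 in untreated cells. Mean Ccng1 was 313, 229, 234 and 33.9 CPM in the same order. The Trp53inp1 call was lost in 5 of the 8 fits that leave out 1 library (adjusted p up to 0.0974), and the Gdf15 call, which rests on 4 untreated reads, without untreated replicate 1 (adjusted p = 0.0819).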

How the results depend on the processing

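Against untreated cells 9 of the 10 genes were called under every change of tool, normalization, filter or samples fitted, with 8 for VX680 when 1 library was left out. Requiring a 2-fold change left 5 with 5azadC, 0 for the combination over 5azadC, 1 for the combination over VX680, 1 between the single drugs and 4 for the interaction. That requirement also ended the calls of Trp53, Ppm1d and Trp53inp1 over untreated cells in the combination and with VX680. For the combination over VX680, limma on the authors' signal called 3 and an adjusted p under 0.01 left 2. Leaving out 1 library at a time gave 0 to 6 for the combination over VX680, 0 to 4 between the single drugs, 3 to 6 for the combination over 5azadC, 6 to 8 for the interaction and 8 to 9 for VX680 over untreated cells; a lone library is then assumed to vary like the other groups. Among other named genes Xdh, combination over 5azadC, reversed to 0.68 (adjusted p = 0.0171) without 5azadC replicate 1 and was -0.591 (adjusted p = 0.0134) without replicate 2. The authors' signal moved the median of all genes by log2 0.12 for VX680 and for the combination against untreated cells. Over all genes the calls for the combination over VX680 numbered 822, and 1299 with no filter, 2014 with those groups fitted alone, 299 at adjusted p under 0.01 and 114 to 1566 with 1 library left out. Between the single drugs 1998 were called, and 1283 with those groups alone; the combination over 5azadC had 3139, and 1629 to 3179 with 1 library left out, and the interaction 1967, and 948 to 2721. Replicate numbers did not pair the samples (correlations of their deviations -0.0622 to 0.0326), and a replicate block gave the same counts, 9, 9, 9, 4, 5, 2 and 7, with 0 changed allele ratios (Gdf15 could not be tested) and 1 gene off parity. Gdf15 in untreated cells and allele counts of Sesn1 and Phlda3 limit what depth can show.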
